A study of Mus musculus with 36 samples.

Results

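Control iPSCs were compared with control embryonic stem cells (ESCs), a comparison of 6 of the 36 RNA-seq libraries in the series, chosen by their labels alone (3 libraries labelled control iPSC and 3 labelled control ESC). The series follows mouse embryonic fibroblasts (MEFs) that carry Cas9 and a doxycycline-inducible cassette of Myc, Klf4, Oct4 (Pou5f1) and Sox2 through reprogramming, with and without knockout (KO) of the zinc finger gene Zfp266. Both groups were wild type for Zfp266, and both go back to an ESC line of 129 background. The control ESC libraries are taken here as 3 samples of 1 line, Clone J, which carries Cas9, the cassette and a Nanog reporter with puromycin resistance. The paper's methods describe a guide RNA and cloning for KO ESCs only, and do not say whether control ESCs had either. The control iPSC libraries were 3 clones reprogrammed from MEFs of chimeric embryos made with that line. The MEFs had received a lentivirus with a non-targeting guide RNA and doxycycline with vitamin C, and single cells positive for the Nanog reporter were sorted at day 15 and grown in ESC medium with puromycin and without doxycycline. The 3 ESC libraries may therefore not sample different ESC clones, whereas each iPSC library is another clone. The main p-values rest on 1 estimate of spread per gene from all 36 libraries, not on the spread among these 6 alone. Fits of the 6 libraries are therefore given too. Differences between iPSCs and ESCs cannot be told apart from those of lentivirus, clone derivation, puromycin selection and the culture history of the ESC line. In bulk RNA, fewer cells of a type and less RNA per cell cannot be told apart either. The paper's methods give library preparation date as an example of a batch effect. That date is not in the sample labels used here, and no fit includes it.

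ESCs are taken from the inner cell mass of the blastocyst and keep the ability to form all tissues of the embryo. iPSCs are somatic cells that reprogramming factors have returned to this state, which is held by a network of transcription factors around Oct4, Sox2 and Nanog. Reprogramming also resets DNA methylation, and imprinted genes are the class that is best known for being altered by it. These genes are expressed from only the maternal or only the paternal copy, according to methylation set down in the egg or the sperm, and long culture of pluripotent cells can disturb that methylation too.

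The 6 libraries held 29898633 to 34537627 counts, and a count of 0 allows up to 3 reads at 95% confidence, or 2.58 to 3.04 normalised counts (counts divided by the size factor of the library), for counting error only. Markers set both groups apart from MEFs, and do not tell iPSCs from ESCs. The summed level of 15 naive pluripotency factors was 93118 to 98197 in iPSCs and 93614 to 102783 in ESCs, against a median of 5124 in control MEFs. The summed level of 24 fibroblast genes was 30853 to 37996 in iPSCs, 30600 to 37863 in ESCs and a median of 923921 in MEFs, and 10 of the 24 stayed under 10 normalised counts in all 6 libraries. Zfp266 was at 2530, 2817 and 2594 normalised counts in iPSC replicates 1 to 3 and at 2238, 2405 and 2445 in ESCs, a log2 fold change (log2FC, iPSC over ESC) of 0.16 (SE 0.07, DESeq2 FDR 0.195).

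Control iPSC replicate 1 stood apart from the other libraries. Its 697 expressed genes of chromosome 8 had a median log2 ratio to the ESC mean of 0.55, or 1.47-fold, and 88.2% of them were above 0. The medians of its other chromosomes lay between -0.07 and 0.03, and those of the other 5 control libraries between -0.04 and 0.04 on every chromosome, Y left out. When the chromosome 8 genes were divided by position into 10 groups of 69 or 70, the group medians were 0.46 to 0.65, so the rise covered the whole chromosome. Results are therefore given with and without this clone.

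**Figure D1:**
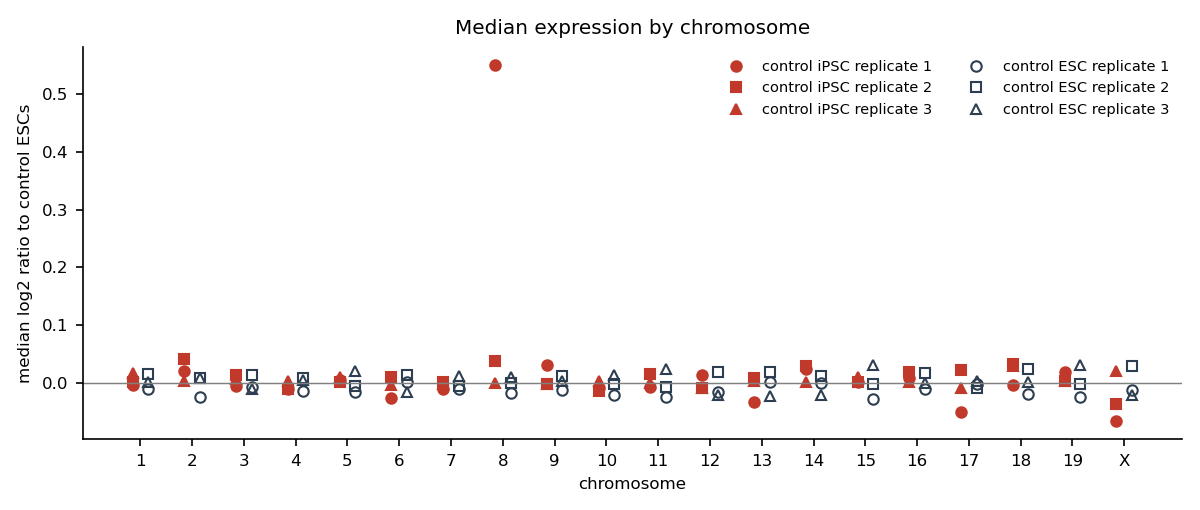
Median log2 ratio of expressed genes to the control ESC mean (vertical axis) on each chromosome except Y (horizontal axis) in the 6 control libraries, where each ESC library is set against the other ESC libraries. Chromosome 8 in control iPSC replicate 1 is at 0.55, and all other points lie between -0.07 and 0.04.

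The transcriptomes of control iPSCs and ESCs were close. Of 12708 genes with an FDR, 407 passed FDR < 0.05 (3.2%), 268 higher (2.11%) and 139 lower (1.09%) in iPSCs, and 94.3% had a log2FC within 0.5 of 0. DEGs (FDR < 0.05 and log2FC > |1|) were 35 (0.275% of tested genes), 19 higher (0.15%) and 16 lower (0.126%). In 29 of the 35 the iPSC and ESC libraries did not overlap, which was so for 14.8% of all tested genes. Without control iPSC replicate 1 there were 21 DEGs (0.128% of 16447 tested genes), of which 11 were among the 35, and 67 genes with FDR < 0.05 (0.407%). On chromosome 8 itself 28 of 660 tested genes were higher in iPSCs at FDR < 0.05 with this clone, against 2.11% of all tested genes. Without the clone it was 1 of 829, where calls over all genes also fell from 407 to 67. The median log2FC of tested chromosome 8 genes was 0.22 with the clone and 0.01 without it. Efnb2, an ephrin ligand, was the 1 DEG there, with a log2FC of 1.05 without replicate 1 (DESeq2 FDR 0.0578).

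Other libraries moved the count too. Without control iPSC replicate 3 the number of DEGs was 288 (1.67% of 17280 tested genes), 89 higher and 199 lower, including 31 of the 35, and 10.8% of genes passed FDR < 0.05. Without replicate 2 it was 19 (0.186%, with 5.03% past the FDR), without ESC replicate 1 it was 8, without ESC replicate 2 it was 18 and without ESC replicate 3 it was 46. A set of 7 genes stayed DEGs in each of the 6 fits that left out 1 library, namely Plagl1, H19, Grb10, Peg10, Capn2, Gpm6b and Glis3, and the first 4 of these are imprinted. A test on the 6 libraries alone with edgeR, which estimates the spread from these iPSC and ESC libraries only, called 4 genes at FDR < 0.05 and as DEGs (0.0227% of tested genes), Plagl1, H19, Nnat and Peg13. All are imprinted and were higher in iPSCs, with an edgeR FDR of 0.0189 to 0.0234. DESeq2 on the 6 libraries called 16 DEGs (0.0885%) and 29 genes at FDR < 0.05 (0.16%), and edgeR on all 36 called 17 (0.0793%) and 84 (0.392%).

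**Figure D2:**
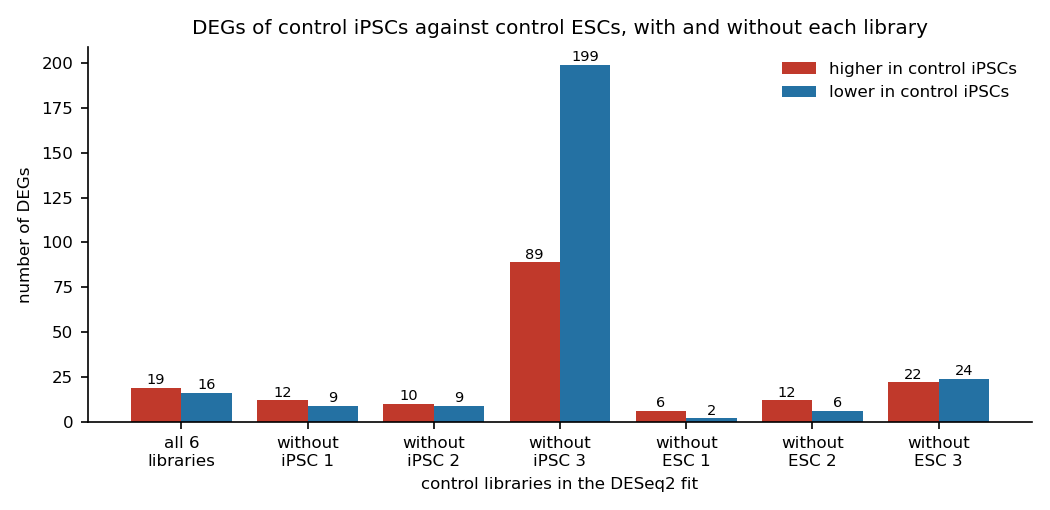
Number of DEGs higher (red) and lower (blue) in control iPSCs than in control ESCs (vertical axis) in the DESeq2 fit with all 6 control libraries and in the 6 fits that left out 1 of them (horizontal axis). Leaving out control iPSC replicate 3 gave 89 and 199, and leaving out control ESC replicate 1 gave 6 and 2.

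Among the 30 gene lists examined, imprinted genes outside the Dlk1-Dio3 cluster had the most members past the FDR, 10 of 25 tested against 3.2% of all tested genes. Promoters of Plagl1, Nnat, Mest, Nap1l5 and Grb10 are shown because many imprinted genes are controlled through CpG-rich sequence that is methylated on 1 parental copy. Whether any window shown is itself such a sequence was not examined. Each window covers 250 bases before to 50 bases after a RefSeq transcription start on GRCm38.p6, is written 5′ to 3′ on the strand of the gene, and has its CpGs in capitals. Sequences of 8 of 12 genes looked up were held in the RefSeq table, and H19, Peg13, Peg10 and Sgce are named only.
Plagl1, chr10:13090582-13090881, plus strand: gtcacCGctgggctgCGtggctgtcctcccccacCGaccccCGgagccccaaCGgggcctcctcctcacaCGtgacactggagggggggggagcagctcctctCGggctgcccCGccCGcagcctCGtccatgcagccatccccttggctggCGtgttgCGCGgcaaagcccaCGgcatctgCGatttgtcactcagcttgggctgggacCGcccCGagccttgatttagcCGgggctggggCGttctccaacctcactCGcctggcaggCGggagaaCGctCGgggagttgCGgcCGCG
Nnat, chr2:157559828-157560127, plus strand: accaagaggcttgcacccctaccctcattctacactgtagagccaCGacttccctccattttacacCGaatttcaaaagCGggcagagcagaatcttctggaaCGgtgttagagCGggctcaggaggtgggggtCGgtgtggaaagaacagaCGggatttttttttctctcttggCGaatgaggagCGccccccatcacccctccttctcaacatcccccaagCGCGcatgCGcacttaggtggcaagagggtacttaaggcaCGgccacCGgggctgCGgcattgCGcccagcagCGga
Mest, chr6:30737800-30738099, plus strand: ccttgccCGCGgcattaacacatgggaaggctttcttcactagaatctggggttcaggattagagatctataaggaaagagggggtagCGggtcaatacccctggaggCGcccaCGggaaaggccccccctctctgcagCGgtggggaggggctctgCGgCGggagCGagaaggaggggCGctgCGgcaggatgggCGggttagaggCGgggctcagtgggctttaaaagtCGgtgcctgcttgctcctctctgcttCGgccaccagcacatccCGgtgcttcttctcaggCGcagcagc
Nap1l5, chr6:58907077-58907376, minus strand: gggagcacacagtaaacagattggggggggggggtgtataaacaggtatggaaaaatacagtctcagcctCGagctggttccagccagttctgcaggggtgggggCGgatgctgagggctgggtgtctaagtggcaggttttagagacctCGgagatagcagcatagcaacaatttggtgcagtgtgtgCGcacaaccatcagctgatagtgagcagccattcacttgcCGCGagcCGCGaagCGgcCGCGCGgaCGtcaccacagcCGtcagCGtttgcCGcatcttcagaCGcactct
Grb10, chr11:12037371-12037670, minus strand: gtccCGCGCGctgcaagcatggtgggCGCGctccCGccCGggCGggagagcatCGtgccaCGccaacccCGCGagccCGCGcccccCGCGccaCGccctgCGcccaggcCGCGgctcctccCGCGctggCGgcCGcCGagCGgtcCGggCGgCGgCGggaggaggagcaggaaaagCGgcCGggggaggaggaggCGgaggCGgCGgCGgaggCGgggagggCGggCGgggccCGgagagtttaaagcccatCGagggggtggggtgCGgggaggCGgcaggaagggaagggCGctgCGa
The windows of Nnat, Mest and Nap1l5 hold 17 CpGs each, that of Plagl1 26 and that of Grb10 45, where the median of all 32851 windows is 7. As many as 17 CpGs were found in 31.4% of windows, 26 in 16.9% and 45 in 1.93%. These windows were chosen as CpG-rich starts. Other starts of the genes looked up had fewer CpGs, with 8 in a second Mest window, 9 in a second Grb10 window, 2 to 7 in the Snrpn windows and 5 in that of Rhox5, while that of Phlda2 had 26. The hexamer TGCCGC, the core of the site that ZFP57 binds on methylated imprinted regions, was searched on both strands. It occurs once in the Plagl1, Nnat and Grb10 windows and 2 times in those of Mest and Nap1l5, and 11.6% of all windows have it. It was absent from the windows of Phlda2 and Rhox5 and from the second windows of Mest and Grb10. Of the Snrpn windows, the one with 7 CpGs has it once and the others lack it. The hexamer itself holds a CpG, so the share of all windows is not a matched background for windows chosen as CpG-rich. The counts describe the letters only, and no methylation was measured here. The Plagl1, Mest and Grb10 windows lie inside their annotated genes, at starts downstream of the outermost one. The Rhox5 window (chrX:37754358-37754657) and the Snrpn window with 2 CpGs (chr7:60450128-60450427) lie upstream of the genes as annotated here.

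The paternally expressed genes that passed were all higher in iPSCs. Of 14 tested genes of this kind 5 passed FDR < 0.05 (Plagl1, Mest, Peg10, Snrpn and Sgce), and the median log2FC of the 14 was 0.38 against 0.01 over all tested genes. Plagl1 (chromosome 10, 13060504 to 13131694, plus strand, GRCm38 with GENCODE annotation, as for all genes here), a zinc finger transcription factor that restrains growth, was at 124, 127 and 234 normalised counts in iPSC replicates 1 to 3 and at 5.02, 5.06 and 8.69 in ESCs. Its log2FC was 4.67 (SE 0.45, DESeq2 FDR 1.20e-21) and stayed between 4.30 and 5.00 when any library was left out. Control MEFs had 1370 ± 165 (SD, n = 3), so the iPSC level was above that of ESCs and below that of fibroblasts in every clone. Mest (chromosome 6, 30723547 to 30748465, plus strand), which encodes a membrane protein of the hydrolase fold, was at 6930, 4281 and 4948 in iPSCs and 2253, 2251 and 2660 in ESCs. All clones were above all ESC libraries, and the log2FC was 1.17 (SE 0.17, FDR 2.50e-08). Without replicate 1 it was 0.95 (FDR 7.35e-05), so that Mest passed the FDR but not the fold threshold.

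Peg10 and Sgce are neighbours that start back to back on chromosome 6. Peg10 (4747306 to 4760517, plus strand), a gene derived from a retrotransposon and needed for the placenta, was at 8809, 15056 and 14574 in iPSCs and 5006, 5404 and 6030 in ESCs, with a log2FC of 1.23 (SE 0.22, FDR 3.44e-05). Sgce, a sarcoglycan, was at 125, 71.5 and 126 in iPSCs and 47.2, 59.7 and 55.6 in ESCs, with a log2FC of 0.99 (SE 0.25, FDR 0.00700). Sgce did not pass in 3 of the 6 fits that left out a library, among them the fit without iPSC replicate 1 (FDR 0.121). Snrpn (chromosome 7, 59982495 to 60140219, minus strand), a spliceosome protein whose reads may be shared with the overlapping Snurf, had tight values of 2342, 2107 and 2182 in iPSCs and 1499, 1356 and 1438 in ESCs. The groups were well apart and the change was small, with a log2FC of 0.63 (SE 0.14, FDR 0.00153). It passed in all 6 fits without 1 library.

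The paternally expressed genes Nnat, Peg13 and Nap1l5 had no FDR in this fit, because DESeq2 left out genes with a low mean over all 36 libraries. Without that filter, an alternative chosen after the data were seen that called 288 genes at FDR < 0.05 (1.34% of 21436) and 38 DEGs (0.177%), all 3 were DEGs, and 8 of 21 paternally expressed genes passed. Nnat (chromosome 2, 157560078 to 157562522, plus strand), a small protein of the endoplasmic reticulum named for its expression in neonatal brain, was at 55.3, 62.0 and 116 in iPSCs and 3.01, 2.02 and 2.61 in ESCs. Its log2FC was 4.93 (SE 0.59, FDR 2.91e-13), from 261 reads in iPSCs and 8 in ESCs. Peg13 (chromosome 15, 72805600 to 72810324, minus strand), a non-coding RNA transcribed within an intron of another gene, was at 63.9, 74.1 and 70.5 in iPSCs and had no read in any ESC library. With 3 reads as the limit in each ESC library, it was at least 24.1-fold higher in iPSCs (FDR 1.99e-08). Nap1l5, a nucleosome assembly protein, was at 12.9, 17.2 and 16.7 in iPSCs and 1.00, 2.02 and 0 in ESCs (FDR 0.00685).

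Maternally expressed genes went in both directions. H19 (chromosome 7, 142575529 to 142578143, minus strand), a long non-coding RNA that hosts Mir675 and is abundant in embryonic and fetal tissue, was at 440, 304 and 981 in iPSCs and 11.05, 10.1 and 19.98 in ESCs. Its log2FC of 5.38 (SE 0.75, FDR 3.88e-09) was the highest among tested genes, and control MEFs had 88739 ± 3326 (SD, n = 3). Igf2, its paternally expressed neighbour and a growth factor, had 9 reads in iPSCs and 16 in ESCs and did not pass (FDR 0.451). Grb10 (chromosome 11, 11930508 to 12038683, minus strand), an adaptor that dampens insulin and growth factor receptors, was lower in iPSCs, at 103, 900 and 411 against 2046, 2126 and 2224 in ESCs. The 3 clones differed widely among themselves, and all were below every ESC library, with a log2FC of -2.18 (SE 0.36, FDR 5.17e-06). DESeq2 on the 6 libraries alone did not call Grb10 (FDR 0.444). Phlda2, a placental growth inhibitor, was at 444, 317 and 631 in iPSCs and 915, 956 and 993 in ESCs, with a log2FC of -1.04 (SE 0.30, FDR 0.0276). This call was lost in 5 of the 6 fits without 1 library (FDR 0.161 without iPSC replicate 1). Cdkn1c, a cell cycle inhibitor next to Phlda2, was at 228, 553 and 276 in iPSCs and 582, 602 and 632 in ESCs and did not pass (log2FC -0.78, FDR 0.0852).

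Over the whole list of 35 imprinted genes outside the cluster, 34 were in the table, 25 had an FDR, and 10 passed, 7 higher and 3 lower, of which 6 were DEGs (3.2% and 0.275% of all tested genes). The median log2FC of the 25 was 0.05, against 0.01 over all tested genes. Earlier results of these data were known when the list was chosen. The remaining genes that passed were Gab1, an adaptor of receptor tyrosine kinases that is imprinted in extraembryonic tissue and lies on chromosome 8, and Gnas, a G protein subunit whose imprinting depends on tissue and transcript. Gab1 was at 9557, 6550 and 6024 in iPSCs and 4910, 5006 and 5424 in ESCs (log2FC 0.53, FDR 0.00204), and without replicate 1 its log2FC was 0.30 (FDR 0.0900). Gnas overlapped between groups (log2FC -0.36, FDR 0.0252). Without iPSC replicate 1, 8 members passed, 7 higher (Plagl1, H19, Mest, Peg10, Snrpn, Nnat and Peg13) and 1 lower (Grb10). In the Dlk1-Dio3 cluster on chromosome 12, a place where imprinting is often lost in mouse iPSCs, none of 5 tested genes passed in DESeq2 on 36 libraries or either edgeR fit, and none had an unadjusted p below 0.05. DESeq2 on the 5 libraries without iPSC replicate 1 called 1 of them. Meg3, its maternally expressed non-coding RNA, was at 3826, 11664 and 7586 in iPSCs and 7736, 6395 and 5553 in ESCs, and each clone expressed it.

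To see whether the imprinted genes behaved alike in other clones, KO iPSCs were set against KO ESCs, which share no library with the control comparison (1088 of 16863 genes at FDR < 0.05, 6.45%, and 246 DEGs, 1.46%). The KO iPSCs were 3 clones that received a Zfp266 guide RNA, and the KO ESCs were 3 clones of Clone J edited with a Zfp266 guide plasmid. Both differ from the controls by genotype, and the ESCs may also differ by cloning. Control and KO ESCs are both taken to go back to Clone J, so a trait of that line would recur in both contrasts. Plagl1 was at 306, 292 and 138 in KO iPSCs and 6.28, 3.89 and 2.69 in KO ESCs (log2FC 5.84, DESeq2 FDR 2.26e-28). H19 was at 906, 307 and 2412 against 20.6, 18.5 and 31.4 (log2FC 5.68, FDR 3.12e-11). Both genes were again higher in every iPSC clone than in every ESC library. Nnat was at 67.9, 31.2 and 50.5 against 0, 0.973 and 0.897, and Peg13 at 94.8, 81.6 and 29.3 against 0, 0 and 1.79. Peg10 (log2FC 0.88, FDR 0.00298), Sgce (1.26, FDR 1.89e-05) and Snrpn (0.50, FDR 0.00761) were higher in KO iPSCs too. Grb10 (-2.88, FDR 7.73e-12) and Phlda2 (-1.34, FDR 0.000884) were lower, as was Cdkn1c (-1.16, FDR 0.00235). The test of the difference between genotypes gave FDR 0.478 to 0.951 for these 10 genes. Mest was the exception, with 2308, 3131 and 2801 in KO iPSCs and 2447, 2154 and 2375 in KO ESCs (log2FC 0.24, FDR 0.473), and its log2FC differed between genotypes by 0.93 (FDR 0.0155).

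**Figure D3:**
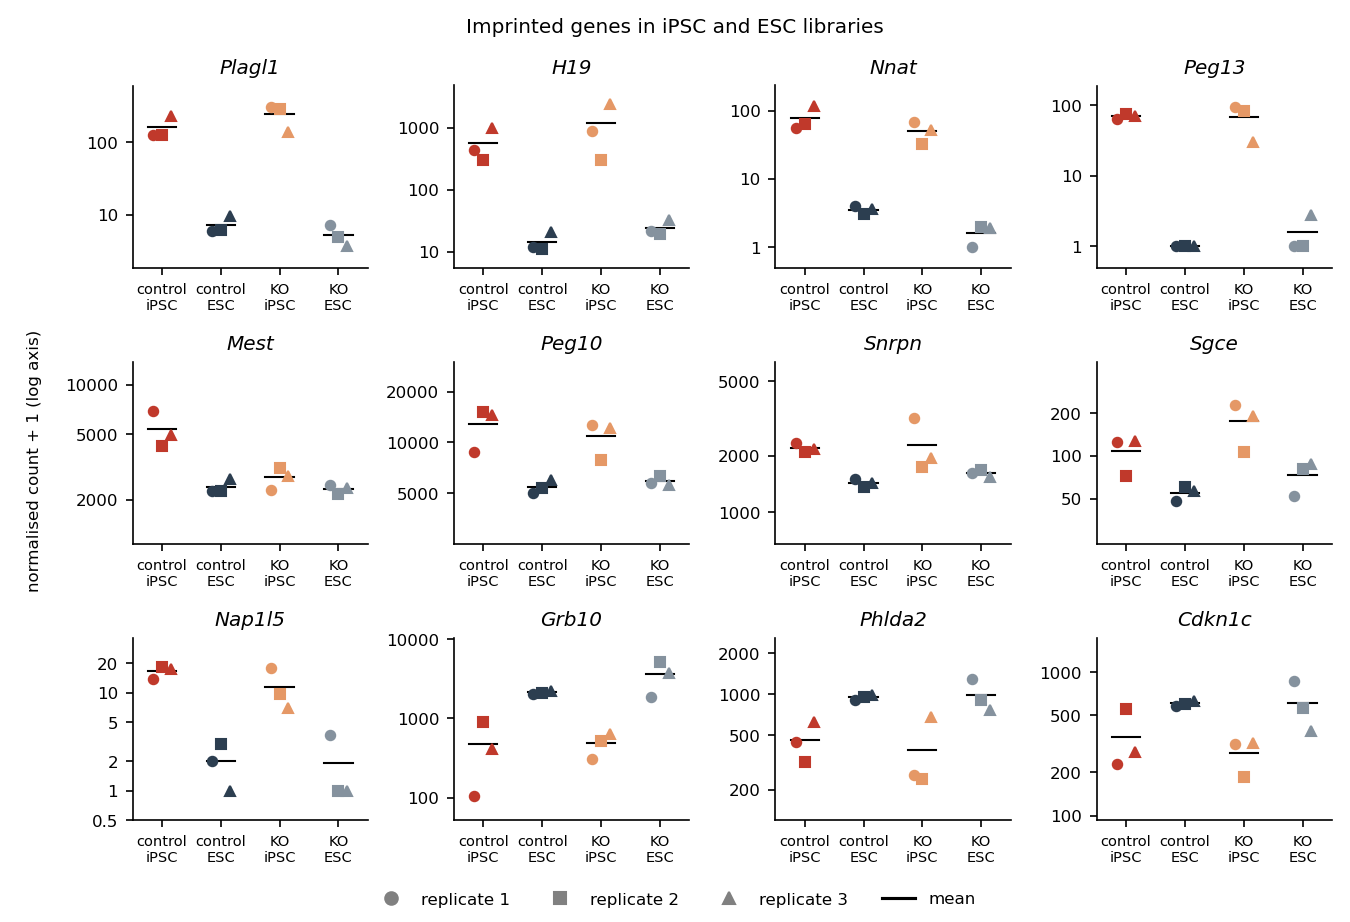
Normalised counts plus 1 (vertical log axis) of 12 imprinted genes in the 12 iPSC and ESC libraries, where symbols mark replicates and lines the group means. Plagl1, H19, Nnat and Peg13 are higher in all 6 iPSC clones than in all 6 ESC libraries, and Grb10 is lower in all 6, while Mest stands out in control iPSCs only.

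Of the DEGs that stayed DEGs whichever library was left out, 3 are not imprinted. Capn2 (chromosome 1, 182467260 to 182517608, minus strand), a calcium-dependent protease of the cytoplasm, was at 1480, 1528 and 581 in iPSCs and 401, 343 and 423 in ESCs. All clones were above all ESC libraries, with replicate 3 nearest to them, and the log2FC was 1.62 (SE 0.28, FDR 2.49e-05). Gpm6b (chromosome X, 166238911 to 166388988, plus strand), a membrane proteolipid of neurons and glia, was at 24.2, 40.5 and 17.6 against 5.02, 12.2 and 7.82, a log2FC of 1.74 (SE 0.34, FDR 0.000258). Glis3 (chromosome 19, 28258851 to 28680077, minus strand), a zinc finger transcription factor of pancreas and kidney, was lower, at 15.5, 22.4 and 43.6 against 53.2, 65.8 and 81.7, a log2FC of -1.32 (SE 0.26, FDR 0.000272). None of the 3 passed on the 6 libraries alone, with FDR 0.0830, 0.351 and 0.241 for Capn2, Gpm6b and Glis3 in DESeq2 and 0.637 for each in edgeR. None passed in KO cells either, where the log2FC was 0.56, -0.56 and 0.43 (FDR 0.257, 0.370 and 0.343). The difference between genotypes passed for Gpm6b and Glis3 (FDR 0.000943 and 0.000702).

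Of the 35 DEGs, 24 were no DEGs without iPSC replicate 1. Besides Mest, they included Paqr7, a membrane progestin receptor, Tmem173 (STING), an adaptor of cytosolic DNA signalling, and Klhl13, a ubiquitin ligase adaptor. Paqr7 was at 56.1, 31.0 and 25.1 in iPSCs against 17.1, 16.2 and 15.6 in ESCs, so that all clones were above ESCs and replicate 1 was the highest. Its FDR went from 0.00306 to 0.267 without that clone. Klhl13 was at 1814, 927 and 4211 against 5409, 5421 and 5226. Its replicate 3 was nearest to the ESC level, and its log2FC was -1.21, -1.06 without replicate 1 and -0.83 without replicate 2. Tmem173 was at 24.2, 15.5 and 3.71 against 3.01, 1.01 and 4.34, with replicate 3 within the ESC range. Its log2FC was 2.35, and 1.77 without replicate 1 (FDR 0.196), and its call was also lost without ESC replicate 1 or 2. None of these 3 genes lies on chromosome 8.

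The remaining DEGs, other than Rhox5, had FDR 0.00257 to 0.0490, and none stayed a DEG in all fits without 1 library. Cav1, Efemp1, Saa3, Mst1r, Gbp2b and Prss23 had at most 22.3 normalised counts in any of the 6 libraries, and Cav1, the caveolae protein of fibroblasts, had no read in iPSCs and 9 reads in all in ESCs (7.03, 1.01 and 0.869 normalised counts). Wt1, a zinc finger regulator of kidney and gonad, was at 79.5, 245 and 189 in iPSCs and 88.4, 91.1 and 74.7 in ESCs, so 1 clone was within the ESC range. Irgm1 and Gbp2b, interferon-induced GTPases, were lower in control iPSCs (log2FC -1.23 and -1.75), while the log2FC in KO cells was 1.32 and 1.21.

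How far each clone lay from ESCs was counted over 13452 expressed genes (mean of at least 50 normalised counts). Control iPSC replicate 1 had 358 genes more than 2-fold from the ESC mean (2.66%), replicate 2 had 450 (3.35%) and replicate 3 had 30 (0.223%). ESC libraries set against the other ESC libraries had 11, 1 and 8. In replicates 1 and 2 most of these genes were below ESCs, 227 and 347. KO iPSC clones had 741, 401 and 329 such genes, and KO ESC clones 182, 255 and 181, all against the control ESC mean, so that control iPSC replicate 3 was nearer to the control ESCs than any KO ESC clone. These counts are of 1 library each and carry no test.

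**Figure D4:**
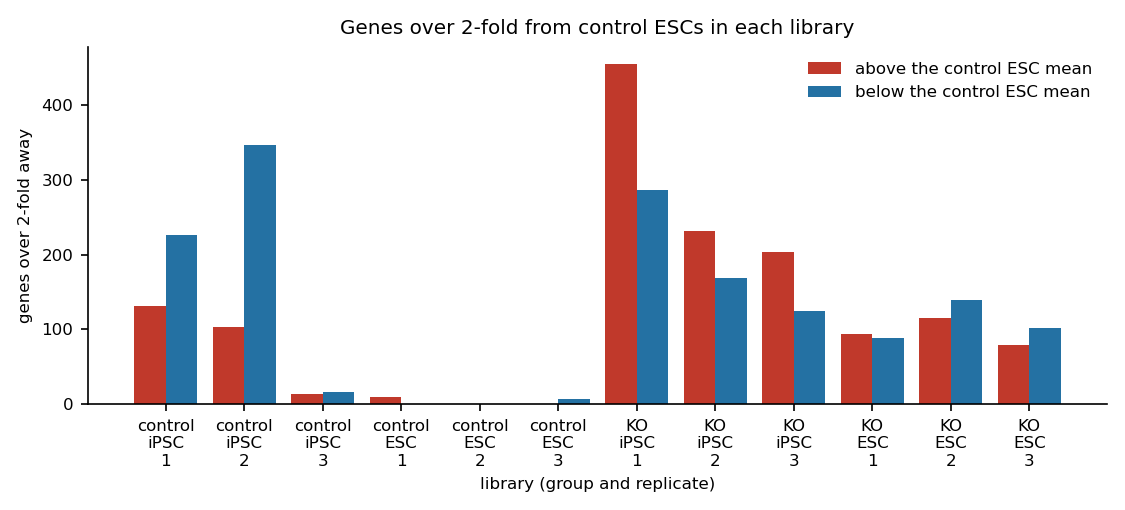
Number of expressed genes more than 2-fold above (red) or below (blue) the control ESC mean (vertical axis) in each of the 12 iPSC and ESC libraries (horizontal axis), with each control ESC library set against the other control ESC libraries. Control iPSC replicate 3, with 14 genes above and 16 below, is closest to the control ESCs.

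Of the 30 genes that set replicate 3 apart from ESCs, 8 were on the imprinted lists, which hold 28 of the 13452 expressed genes. These were Plagl1, H19, Peg10, Sgce, Peg3 and Mest above ESCs, and Grb10 and Cdkn1c below. Peg3, a paternally expressed zinc finger gene, was at 2287, 3217 and 4876 in iPSCs and 2243, 2280 and 2502 in ESCs, so only replicate 3 was far above (log2FC 0.56, FDR 0.115). Dppa3 (Stella), which protects maternal DNA methylation in the early embryo, was 1 of the others. It was at 122, 54.2 and 157 in iPSCs and 435, 433 and 368 in ESCs, apart in every clone, with a log2FC of -1.89 (SE 0.61) and an FDR of 0.0539. It passed in DESeq2 on the 6 libraries (FDR 3.58e-07) and not in edgeR on them (FDR 0.436). Of the 30 genes, 5 were also more than 2-fold away in the same direction in replicates 1 and 2, namely Plagl1, H19, Grb10, Dppa3 and Rhox5.

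Replicates 1 and 2 had low levels of some germline genes that replicate 3 expressed at or nearer to the ESC level. Rhox5 (chromosome X, 37804842 to 37808876, plus strand), a homeobox gene that DNA methylation silences in somatic cells, was at 46.6, 42.2 and 254 in iPSCs and 505, 574 and 531 in ESCs (log2FC -2.23, SE 0.40, FDR 3.49e-05). Control MEFs had 37.8 ± 8.13 (SD, n = 3), close to replicates 1 and 2. On the 6 libraries alone it did not pass in DESeq2 (FDR 0.452) or edgeR (FDR 0.637). Rhox5 was the only one of 7 tested germline genes to pass, and the median log2FC of the 7 was -0.34. Without replicate 3, 6 of 25 tested germline genes were DEGs, all lower in iPSCs, against 1.67% of all tested genes in that fit. Besides Rhox5 they were Hormad1, a meiotic chromosome protein, at 147, 177 and 398 in iPSCs and 358, 317 and 305 in ESCs, and Mael, a piRNA pathway protein, at 66.5, 86.1 and 211 against 215, 189 and 164, with Sohlh2, Rhox6 and Rhox9. All 5 were below the ESC range in replicates 1 and 2. In replicate 3 Hormad1 was above it and the other 4 were within it (57.5 against 51.25 to 65.3 for Rhox6). The low values in replicates 1 and 2 are no test, since these genes were picked as DEGs of the fit without replicate 3. With all clones none of these 5 passed in DESeq2 without its filter (FDR 0.320 or more) or in edgeR. In KO iPSCs Rhox5 stood at 588, 803 and 473 against 618, 629 and 426 in KO ESCs, and its log2FC differed between genotypes by -2.39 (FDR 0.00509).

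Some genes outside the germline list were picked, after their values were seen, because replicate 3 differed from replicates 1 and 2. Tfap2c, a transcription factor of trophoblast and germ cells, was at 479, 455 and 1948 in iPSCs and 1588, 1699 and 1742 in ESCs. Ifitm1, an interferon-inducible membrane protein, was at 2850, 3216 and 6750 against 6912, 6976 and 6771, and Oas1a, an antiviral enzyme, at 72.5, 24.1 and 167 against 160, 150 and 149. In all 3 genes replicate 3 was at or above the ESC level. With all clones none passed (FDR 0.366, 0.100 and 0.164), and their values without replicate 3 are no test, since they were picked for it. Without replicate 3, 4 of 12 trophoblast genes (1 higher) and 7 of 26 interferon response genes (1 higher) passed, against 10.8% of all tested genes. S100a6, a calcium-binding protein abundant in fibroblasts, was low in replicates 1 and 2 (117 and 83.5) and at 229 in replicate 3, against 224 to 245 in ESCs.

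Replicate 2 had the lowest summed level of genes of the 2-cell-like state, a rare and passing state of ESC cultures that resembles the early embryo. Zscan4c, its best known marker, was at 319, 0.861 and 310 in iPSCs and 487, 463 and 340 in ESCs. The summed level of the 26 measured genes of this list was 569 in replicate 2 and 2839 and 2857 in the other clones, against 3249 to 4318 in ESCs. None of 7 tested members passed with DESeq2 on 36 libraries or with edgeR, 1 had an unadjusted p below 0.05, and their median log2FC was -1.02. Zscan4 and several other genes of the list are near-identical copies, so reads can be split between them.

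**Figure D5:**
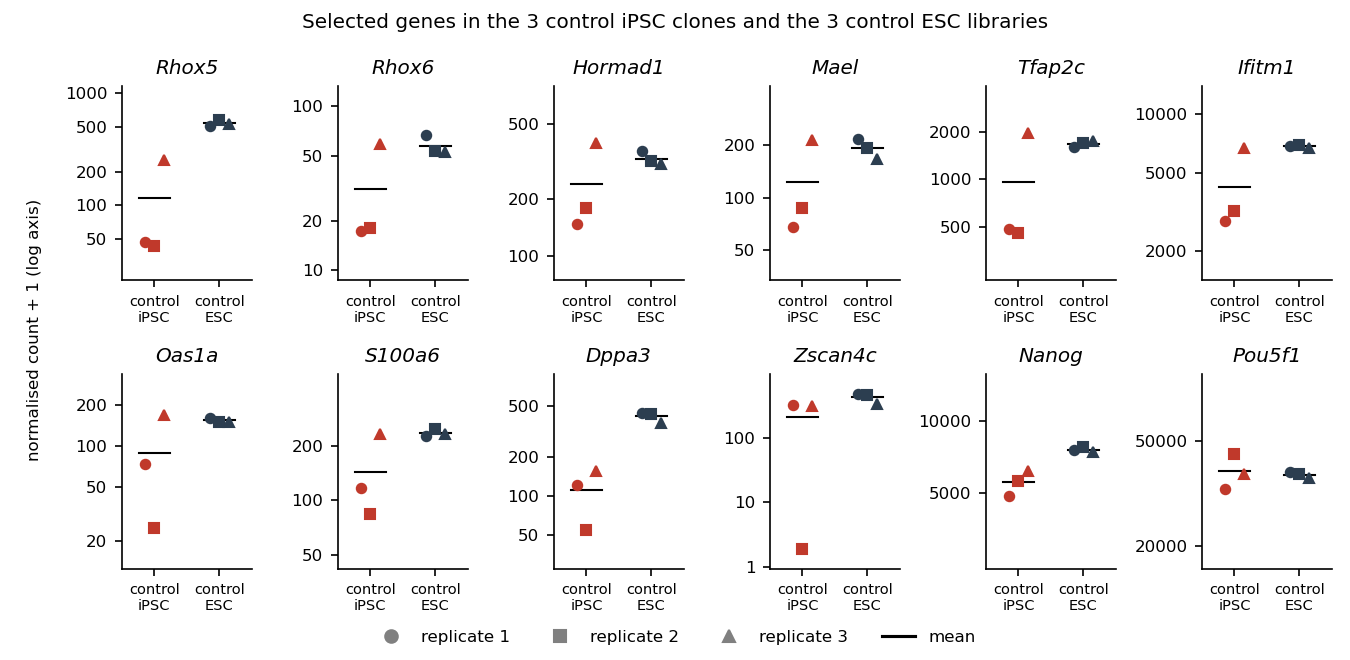
Normalised counts plus 1 (vertical log axis) of 12 genes in the 3 control iPSC clones and the 3 control ESC libraries, where symbols mark replicates and lines the group means. For Rhox6, Hormad1, Mael, Tfap2c, Ifitm1, Oas1a and S100a6 replicates 1 and 2 are well below ESCs and replicate 3 is not, and for Zscan4c replicate 2 alone is.

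The pluripotency network itself was little changed. The reprogramming factors, whose counts cannot separate endogenous from cassette reads, did not pass. Pou5f1 was at 32728, 44550 and 37292 in iPSCs and 37886, 37201 and 36031 in ESCs (log2FC 0.04, FDR 0.866). Sox2 had a log2FC of -0.09, Klf4 of -0.23 and Myc of 0.40 (FDR 0.831, 0.524 and 0.217). Of 15 naive factors only Nanog passed. It was at 4852, 5619 and 6216 in iPSCs and 7548, 7834 and 7434 in ESCs, below ESCs in every clone, with a log2FC of -0.45 (SE 0.14) and an FDR of 0.0471 that held in 1 of 6 fits without a library. Zfp42 (Rex1), a marker of the naive state on chromosome 8, had a log2FC of -0.13 (FDR 0.698). Among 23 other pluripotency genes, L1td1, an RNA-binding protein of pluripotent cells, was higher, at 27219, 29705 and 25452 against 19881, 20539 and 21841 (log2FC 0.40, SE 0.08, FDR 0.000963). It passed in all 6 fits without 1 library, and not in DESeq2 on the 6 libraries (FDR 0.0623) or edgeR on 36 or 6 (FDR 0.0576 and 0.637). The median log2FC was 0.06 for the naive factors and 0.00 for the other pluripotency genes. The lowest log2FC among the latter was -1.89, for Dppa3, described above. Dppa3 was below ESCs in every clone, did not pass in the main fit and passed in DESeq2 on the 6 libraries.

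Regulators of chromatin had 4 genes past the FDR, all higher in iPSCs, where 2.11% of all tested genes were. Of 11 DNA methylation enzymes Tet3, an oxidase of methylcytosine, and Dnmt3a, a de novo methyltransferase, passed. Tet3 was at 472, 421 and 323 in iPSCs and 222, 215 and 290 in ESCs (log2FC 0.74, FDR 0.00195), and Dnmt3a at 4016, 4296 and 3681 against 2570, 2672 and 2801 (log2FC 0.58, FDR 0.0340). In both genes all clones were above all ESC libraries. Of 15 Polycomb genes Jarid2, which recruits PRC2, and Kdm2b, which brings PRC1 to CpG islands, passed with log2FC of 0.37 and 0.57 (FDR 0.0290 and 0.0462). Without iPSC replicate 1 none of these 4 genes passed (FDR 0.0714 to 0.187). Dnmt3a was also the only one of 7 tested primed state genes to pass.

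On 5 further lists 1 or 2 members passed, each with an FDR of 0.0323 or more and none of these 6 genes passed without iPSC replicate 1. They were Ptpn11, a phosphatase of LIF signalling (log2FC 0.20), Atf5 (0.62) and Ddit3 (-0.66), both transcription factors of the stress response, Bst2, an antiviral protein on chromosome 8 (0.36), Gata2, a trophoblast and blood factor (-0.95), and Abcb1b, a drug exporter (-0.53). Without iPSC replicate 1, 1 other ATF4 response gene, Cebpb, was lower (FDR 0.0139). In total 12 of 30 lists had a member past the FDR. The other 18 lists had 234 tested members, of which 28 had an unadjusted p below 0.05, against 2475 of all 12708 tested genes. Neither DESeq2 on 36 libraries nor edgeR on 36 or 6 called any of the 234. DESeq2 on the 6 libraries called 1, Ldhb, a subunit of lactate dehydrogenase, as lower (FDR 0.0182). Apart from lists described above, these 18 cover fibroblast, Hox, germ layer and primitive endoderm genes, and Wnt, ERK, TGF-beta and BMP signalling. They also cover p53 targets, glycolysis, cholesterol synthesis, heat shock, immediate early, cell cycle, mitochondrial and sex chromosome genes. Without iPSC replicate 3, 5 of 24 fibroblast genes, 3 of 20 p53 targets and 2 of 10 germ layer genes passed, against 10.8% of all tested genes. In that fit 1 or 2 members passed on the ERK, heat shock, cholesterol, 2-cell-like and TGF-beta and BMP lists, and none on the rest of the 18. With all clones, the 19 tested cholesterol synthesis genes all had a log2FC below 0, with a median of -0.17, and 2 had an unadjusted p below 0.05. Of all 12708 tested genes, 6727 had a log2FC above 0. The summed level of the 20 measured cholesterol synthesis genes was 30786 to 41907 in iPSCs (median 33861) and 41189 to 43012 in ESCs. The highest clone was thus within the ESC range.

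Across all genes, the iPSC against ESC contrast differed between control and KO cells at FDR < 0.05 for 242 of 16447 genes (1.47%), with the log2FC in control cells above that in KO cells for 90 and below it for 152, and 97 (0.59%) also differed by more than 1. Of the 35 control DEGs, 26 had the same direction in KO cells (74.3%, against 59.7% of all tested genes), 5 were DEGs in the same direction there, and 8 differed between genotypes at FDR < 0.05.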

How the data were processed

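Poly(A) RNA of 1 sample per library was sequenced as 75 base single-end reads from stranded libraries. The authors trimmed reads with Cutadapt after FastQC, joined the runs of a sample, aligned them with STAR to GRCm38.p6 and deposited raw read counts per gene from Rsubread. The annotation release and strand setting are not given in the sources used here, so overlapping genes may share reads. The authors also deposited a normalised signal, counts divided by 1 size factor per library, which recomputed factors matched to a relative difference of 4.98e-15. A log matrix corrected for batches and the authors' comparison tables (fold changes, p-values and FDR) were not used.

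Counts were tested with DESeq2 1.42.0 (R 4.3.3) in 1 fit of all 36 libraries with 1 factor of 12 groups, median-ratio size factors, a two-sided Wald test, default independent filtering and no shrinkage. Of 21442 genes, 8734 had no FDR, and the lowest mean among genes with one was 133 normalised counts over the 36 libraries. DEGs had a Benjamini-Hochberg FDR < 0.05 and log2FC > |1|. Alternatives used edgeR 4.0.16 (quasi-likelihood test), TMM factors, a minimum of 10 counts in 3 libraries, a fold threshold inside the test, a replicate block, fewer libraries and each library left out. On simulated counts for this comparison over 21442 genes, DESeq2 on 36 libraries and edgeR on 6 each recovered 200 of 200 changed genes with 2 false calls. The simulation gave iPSC clones no more spread than other groups. It therefore checks the code, and cannot show how either tool handles clones that differ, as these do. Chromosome medians and clone distances used genes with a mean of at least 50 normalised counts over the 6 libraries and a pseudocount of 1. GENCODE M21 annotated 99.9% of the genes, and promoters came from RefSeq. Library totals were 19224103 to 39610939 over the series. Between libraries of a group the variance was 7.79 to 56.7 times the counting variance, so none was a duplicate.

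The genes described in full are DEGs whose libraries do not overlap and that stay DEGs without any 1 library, first those that edgeR on 6 libraries also called. They are followed by members of each list past the FDR or with the highest counts, Zfp266 and the cassette factors, and DEGs that are no DEGs without iPSC replicate 1. Other genes were named after their values were seen. The members and lists were chosen with earlier results of these data known. Some genes that this rule would name are not reported here.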

Additional observations from a re-analysis of the deposited data

Results flagged for a closer look

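For 12 named genes the log2FC of iPSCs over ESCs differed between control and KO cells at a DESeq2 FDR < 0.05, which 1.47% of all tested genes did. The difference, control minus KO, was 2.29 for Gpm6b, 0.93 for Mest, 0.88 for Atf5, 0.53 for Jarid2 and 0.47 for L1td1. It was -1.56 for Hmgn3, -1.62 for Gata2, -1.75 for Glis3, -1.79 for Nrk, -2.39 for Rhox5, -2.54 for Irgm1 and -2.96 for Gbp2b. In 8 of these genes the control difference was itself a DEG, and in Atf5, Gata2, Jarid2 and L1td1 it passed the FDR only. With edgeR on the 12 iPSC and ESC libraries no gene differed between genotypes, and 1294 had an unadjusted p below 0.05.

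The chromosome 8 genes of KO iPSC replicate 2, a clone outside the control comparison, had a median log2 ratio of 0.50 to the control ESC mean. The other 5 KO iPSC and KO ESC libraries were at 0.03 or less, and control iPSC replicate 1 was at 0.55.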

How the results depend on the processing

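The count of DEGs depended on the libraries more than on the normalisation. It was 35, and 37 with TMM factors, 35 with a minimum count, 38 without independent filtering and 29 without chromosome 8 genes. It was 16 with DESeq2 on the 6 libraries (3 lower), 17 with edgeR on 36 libraries (4 lower), 4 with edgeR on 6 libraries and 5 with the fold threshold inside the test, the last 2 with 0 lower, where 1323 and 32 genes had an unadjusted p below 0.05. With the FDR alone it was 407. Leaving out 1 of the 6 libraries gave 8 (ESC replicate 1) to 288 (iPSC replicate 3), with 6 to 89 higher and 2 to 199 lower, and also over 1.5 times fewer without iPSC replicate 1 (21), iPSC replicate 2 (19) and ESC replicate 2 (18). The cause was not tested. DESeq2 on the 5 libraries without iPSC replicate 1 called 15.

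Calls on all gene lists numbered 23, and 11, 12, 4 and 4 with DESeq2 on 6, edgeR on 36, edgeR on 6 libraries and the threshold test, and 7 to 63 with 1 library left out. For imprinted genes outside Dlk1-Dio3 these were 10, with 4 in edgeR on 6 libraries and in the threshold test and 6 (without ESC replicate 1) to 12 (without iPSC replicate 3). The 242 genotype differences became 49 with DESeq2 and 0 with edgeR on 12 libraries, 63 with edgeR on 36 and 129 (without control ESC replicate 2) to 605 (without KO iPSC replicate 3). They were also 131, 149 and 153 without control ESC replicate 1, KO iPSC replicate 1 and KO ESC replicate 2, and 409, 559 and 446 without control iPSC replicates 1 and 3 and KO iPSC replicate 2.

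The replicate block gave 37 DEGs, 33 of them shared, and 264 genotype differences. Same-numbered iPSC and ESC libraries had deviations correlated at -0.120, -0.039 and -0.108, so the numbers do not pair them. The chromosome 8 median of iPSC replicate 1 was 0.54 to 0.56 under all 3 alternatives.

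Over 97 named genes, 994 alternative values kept direction and call, 286 lost the call, 31 gained it and 25 changed sign, all without a call. With 1 library left out, log2FC ranged from -0.21 to 0.39 for Cdh1, -0.012 to 0.040 for Ctnnb1, -0.021 to 0.32 for Dnmt3b, -0.0041 to 0.09 for Esrrb, -0.015 to 0.13 for Etv5, -0.15 to 0.19 for Fn1, -0.30 to 0.62 for Hoxd13, -0.61 to 0.022 for Klf4, -0.33 to 0.41 for Lefty1, -0.20 to 0.55 for Meg3, -0.047 to 0.14 for Pax6, -0.041 to 0.011 for Pkm, -0.081 to 0.14 for Pou5f1, -0.031 to 0.59 for Rian, -0.21 to 0.021 for Tdgf1, -0.14 to 0.010 for Tfcp2l1 and -0.30 to 0.75 for Vim.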
